A study of Mus musculus with 28 samples.

Results

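TGF-beta signalling in microglia was followed through 10 genes of the pathway, taken by symbol from a table of 40021 genes: the ligand gene Tgfb1, its anchor Nrros, the receptor genes Tgfbr1 and Tgfbr2, the signal carriers Smad2, Smad3 and Smad4, and the inhibitors Smad7, Ski and Skil. Tgfbr1 fell at 4 h and further at 18 h after intravitreal LPS and was back in the naïve range at 2 weeks. Tgfbr2 fell at 18 h. Skil rose at 4 h and was lower again at 18 h. None of the 10 genes passed the test at 2 weeks.

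The values come from live microglia (tdTomatohi, DRAQ7-) sorted from 28 single retinas of male heterozygous Cx3cr1CreER:R26-tdTomato mice on a C57BL/6 background. In these mice the Cx3cr1 promoter drives a tamoxifen-dependent Cre that switches on the red reporter tdTomato, so the sort takes cells in which that Cre had acted. The paper reports that part of the microglia were labelled even without the drug. All groups, controls included, carried both alleles and received tamoxifen on the eye. The naïve group held 10 uninjected retinas. Endotoxin-induced uveitis (EIU), a self-limiting inflammation of the eye that follows LPS injected into the vitreous, was sampled at 4 h (6 retinas), 18 h (5 retinas) and 2 weeks (7 retinas). The labels name 2 experiments, which held 6 and 4 naïve retinas, 3 and 3 at 4 h, 4 and 1 at 18 h, and 4 and 3 at 2 weeks. They do not tie retinas to animals, so left and right eyes of the same mouse may both be present and p-values measure the spread between retinas.

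TGF-beta is secreted in a latent form that cells hold at their surface until integrins release it, and NRROS is the protein that holds latent TGF-beta1 on microglia. The freed ligand joins the type II receptor TGFBR2 to the type I receptor TGFBR1, which phosphorylates SMAD2 and SMAD3, and these enter the nucleus with SMAD4. SMAD7 blocks the type I receptor, while SKI and SKIL (SnoN) repress genes at SMAD-bound sites. Microglia of the brain and retina are known to need this pathway to keep their homeostatic genes on.

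Libraries held 7510000 to 19700000 alignments. Levels are given as RPKM, in which reads are scaled to transcript length and to library size, and 6552 to 11825 genes per retina reached an RPKM of 1. Of 10 microglial markers none was under an RPKM of 1 throughout any group, and their summed level was 6669 to 14670 RPKM in naïve retinas and 7900 to 15469 RPKM by 2 weeks, against 2293 to 8610 RPKM for 4 h retinas and 4152 to 8529 RPKM for 18 h retinas. Rod photoreceptor transcripts were present in every library: 8 rod markers summed to 180 to 5067 RPKM. Of 8 lymphocyte markers, 6 were at 0 in every naïve retina and the sum did not exceed 0.548 RPKM there, against 9.10 to 324 RPKM at 18 h. In the 18 h retinas Nkg7 held 5.77 to 86.4 RPKM and Gzma 0 to 238 RPKM. Of the other lymphocyte markers, Trbc2 did not exceed 5.24 RPKM there, and Cd3d, Cd3e, Cd3g, Cd79a and Ms4a1 did not exceed 1.42 RPKM. The sum of 8 monocyte or macrophage markers was 0.112 to 13.7 RPKM in naïve retinas and 0.228 to 50.6 RPKM at 18 h. Of 9 neutrophil markers, 7 were at 0 in every naïve retina and 2 in every 18 h retina. S100a8 and S100a9, at 0 in all naïve retinas, reached 9.24 and 5.15 RPKM at 18 h. Csf3r, another of the 9, ran from 5.60 to 83.0 RPKM in naïve retinas and from 2.86 to 11.7 RPKM at 18 h. In bulk libraries of this kind, fewer cells of a type and less RNA per cell cannot be told apart.

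Promoter sequence from RefSeq (GRCm38.p6) was found for 6 of the 10 genes: Tgfb1, Nrros, Tgfbr1, Tgfbr2, Smad3 and Ski. The windows of both receptor genes are shown because both fell at 18 h, and Tgfbr1 has a second one, before an annotated start further inside the gene. Each is the 250 bases before the annotated start on the gene's own strand, and capitals mark CAGAC or its reverse complement GTCTG, the core of the SMAD-binding element.
Tgfbr1, chr4:47352972-47353221, plus strand: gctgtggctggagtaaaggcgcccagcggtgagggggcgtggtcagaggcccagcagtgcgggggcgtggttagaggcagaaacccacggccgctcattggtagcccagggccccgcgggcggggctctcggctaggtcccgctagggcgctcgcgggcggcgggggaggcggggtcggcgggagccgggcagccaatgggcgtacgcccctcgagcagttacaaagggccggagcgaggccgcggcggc
Tgfbr1 inner start, chr4:47385966-47386215, plus strand: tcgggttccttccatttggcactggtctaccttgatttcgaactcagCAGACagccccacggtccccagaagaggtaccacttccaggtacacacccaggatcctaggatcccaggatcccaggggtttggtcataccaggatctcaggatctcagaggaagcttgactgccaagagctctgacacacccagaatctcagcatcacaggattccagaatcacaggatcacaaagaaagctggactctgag
Tgfbr2, chr9:116175364-116175613, minus strand: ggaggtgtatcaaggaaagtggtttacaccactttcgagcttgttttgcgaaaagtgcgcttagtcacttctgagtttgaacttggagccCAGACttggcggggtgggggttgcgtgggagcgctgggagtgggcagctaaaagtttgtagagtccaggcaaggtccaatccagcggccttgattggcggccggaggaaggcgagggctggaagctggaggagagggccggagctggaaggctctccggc

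G and C made up 74.8% of the outer Tgfbr1 window, 52.8% of the inner one and 58.4% of the Tgfbr2 window, beside a median of 52.4% over 32851 such windows. CAGAC, read on both strands, matched 0 times in the outer Tgfbr1 window and 1 time each in the inner Tgfbr1 and the Tgfbr2 window, and 42.2% of all windows held it. GAGGAAG, a core bound by the myeloid factor PU.1, followed the same pattern (0, 1 and 1), apart from the SMAD core, and was held by 10.6% of all windows. Which start these cells use was not measured. These matches describe letters only, since binding was not measured.

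In naïve microglia Tgfbr1 was the most abundant of the 10 transcripts per length, at 59.1 to 142 RPKM with a median of 107. Skil followed with a median of 27.3 RPKM, then Smad2 (12), Tgfbr2 (11.9), Nrros (10.96), Ski (9.43), Smad4 (5.13), Smad3 (3.10), Smad7 (2.05) and Tgfb1 (1.41). Tgfbr1 exceeded Skil in 10 of 10 naïve retinas, and its lowest value, 59.1 RPKM, lay above the highest of Skil, 50.2 RPKM. Skil exceeded Smad2 in 9 of 10 retinas. The ranges of these and all later neighbours in the order overlapped, and 5 to 7 of 10 retinas followed it in each later pair. The order was taken from these same retinas, so it is given with no test. The naïve values spread more widely in experiment 1 than in experiment 2 for 10 of the 10 genes, as they did for 93.6% of all genes tested.

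**Figure D1:**
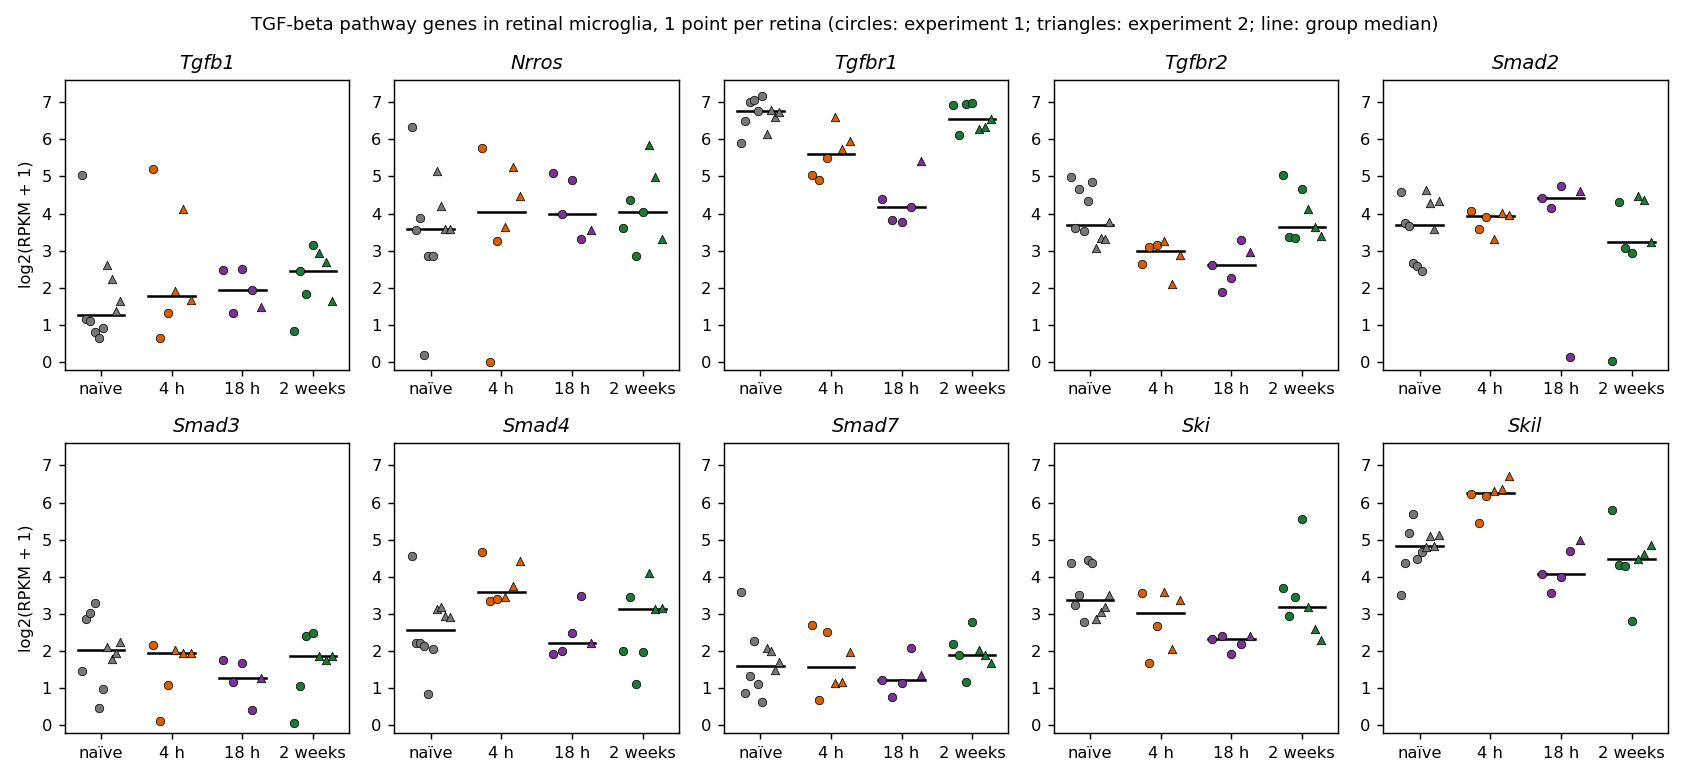
Level of each gene as log2(RPKM + 1) in every retina, by group, with circles for experiment 1, triangles for experiment 2 and a line at the group median. Tgfbr1 drops from a naïve median of 107 RPKM to 17.12 RPKM at 18 h with no overlap, Skil stands above all naïve retinas in 5 of 6 retinas at 4 h, and Tgfb1 and Nrros spread widely within groups.

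All 10 genes were among the 13164 that passed a filter on low values, reaching an RPKM of 1 in 5 or more of the 28 retinas. These were tested together by limma on log2(RPKM + 1), with p-values adjusted by the Benjamini-Hochberg method over all of them. A gene passed at an adjusted p of at most 0.05, and because 1 is added to each value the fold changes of low genes are understated. At 4 h 2 of the 10 passed, 1 higher and 1 lower, where 8.7% of all genes passed (3.87% higher, 4.82% lower). At 18 h 2 of 10 passed, both lower, against 4.85% of all genes (1.91% lower). Their median log2 fold change was 0.05 at 4 h and -0.45 at 18 h, beside -0.11 and -0.08 over all genes tested. At 2 weeks 0 of 10 passed by limma, and 0 of 10 had an unadjusted p under 0.05, where 1 gene in all passed (0.0076%) and 378 (2.87%) had an unadjusted p under 0.05. The 3 comparisons share the 10 naïve retinas.

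**Figure D2:**
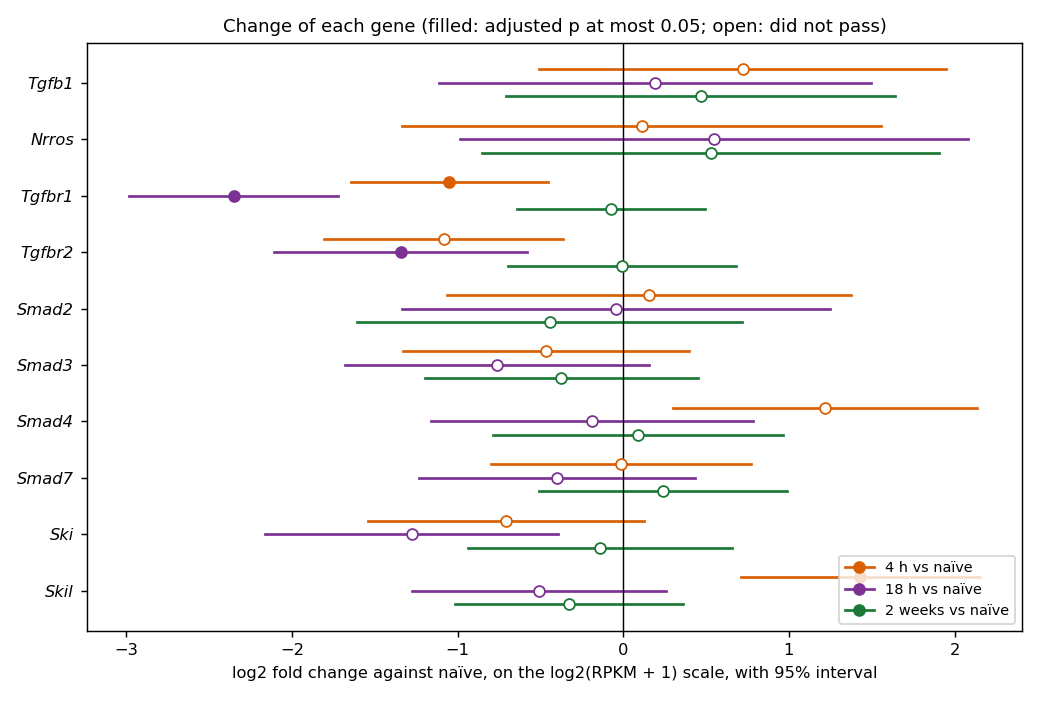
Log2 fold change of each gene against naïve for the 3 sampling times on the log2(RPKM + 1) scale, with its 95% interval, filled where the adjusted p was at most 0.05. Tgfbr1 at -2.35 and Tgfbr2 at -1.34 pass at 18 h, Skil at 1.43 and Tgfbr1 at -1.05 pass at 4 h, and all 2 week intervals include 0.

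Tgfb1 encodes the ligand TGF-beta1. Its level was low in most retinas, at 0.556 to 31.6 RPKM in the naïve group (median 1.41), 0.567 to 36.0 RPKM at 4 h (median 2.46) and 0.781 to 7.82 RPKM at 2 weeks (median 4.50). The 5 retinas at 18 h held 4.58, 1.48, 4.72, 2.85 and 1.79 RPKM. All groups overlapped, and naïve retina 1 stood apart at 31.6 RPKM, as did 4 h retinas 1 (36.0 RPKM) and 5 (16.4 RPKM). The log2 fold change was 0.72 at 4 h (95% interval -0.51 to 1.95, adjusted p = 0.549 by limma), 0.19 at 18 h (-1.11 to 1.49) and then 0.47 at 2 weeks (-0.71 to 1.64), and it did not pass at any time.

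Nrros, the anchor of latent TGF-beta1, varied widely between retinas. It ran from 0.134 to 79.9 RPKM in naïve retinas (median 10.96), from 0 to 53.7 RPKM at 4 h (median 16.2) and from 6.27 to 56.0 RPKM by 2 weeks (median 15.5), with 33.1, 14.8, 28.8, 8.98 and 10.7 RPKM at 18 h. The groups overlapped throughout, and the gene was listed at 0 in 4 h retina 2. Its log2 fold change was 0.11 at 4 h (95% interval -1.34 to 1.56), 0.55 at 18 h (-0.98 to 2.08) and then 0.53 at 2 weeks (-0.85 to 1.91), and no comparison passed.

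Some libraries high for Tgfb1 and Nrros were also high for rod transcripts. Naïve retina 1, the highest naïve retina for both genes, had the highest summed rod level at 5067 RPKM and was also the highest naïve retina for Smad4 (22.4 RPKM) and Smad7 (11.1 RPKM). Rod markers summed to 3557 RPKM in 4 h retina 1 and 3875 RPKM in 4 h retina 5, but also to 3535 RPKM in 4 h retina 6, where Tgfb1 was at 2.18 RPKM and Nrros at 20.99 RPKM. In 4 h retina 2, where Nrros was listed at 0, they summed to 372 RPKM, and in naïve retina 4, where Nrros was at 0.134 RPKM, to 230 RPKM. The part of rod transcripts in these levels was not tested.

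**Figure D3:**
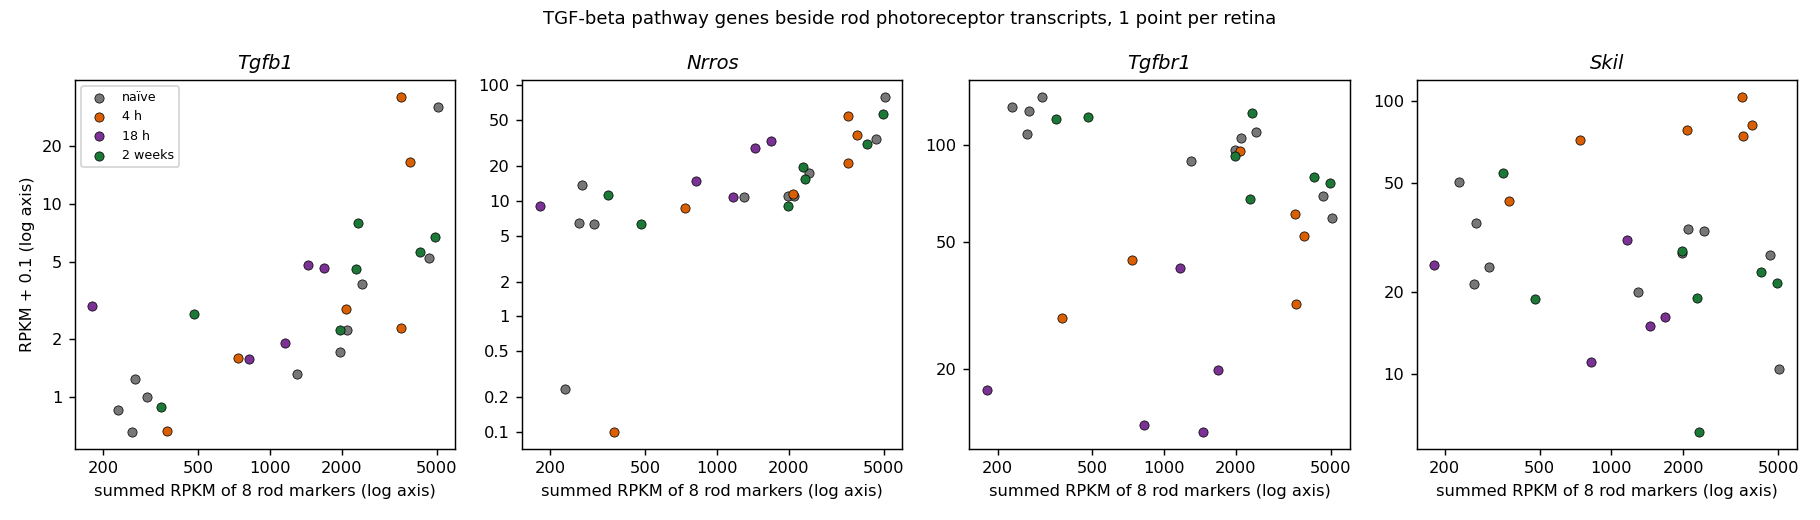
RPKM + 0.1 of Tgfb1, Nrros, Tgfbr1 and Skil against the summed RPKM of 8 rod markers, both on log axes, with 1 point per retina coloured by group. Naïve retina 1 lies at the upper right with 79.9 RPKM of Nrros and 5067 RPKM of rod markers, whereas the 5 retinas at 18 h lie low for Tgfbr1 (12.6 to 41.2 RPKM) across rod levels from 180 to 1683 RPKM.

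Tgfbr1 (chr4:47353222-47414931, plus strand, GRCm38, GENCODE M21) encodes the type I receptor kinase ALK5, which phosphorylates SMAD2 and SMAD3. Its level was 59.1 to 142 RPKM in naïve retinas with a median of 107, and 28.7 to 95.5 RPKM at 4 h with a median of 47.9. The 5 retinas at 18 h held 19.8, 13.3, 12.6, 17.12 and 41.2 RPKM. At 2 weeks the 7 retinas held 68.0 to 126 RPKM with a median of 92.5. At 4 h 4 of 6 retinas lay below every naïve retina, at 18 h all 5 did, as 1.3% of all genes tested did, and at 2 weeks all 7 lay within the naïve range. The lowest naïve levels, 59.1 and 69.4 RPKM, were in retinas 1 and 7, which held the most rod transcripts of that group (5067 and 4643 RPKM summed). The 18 h retinas were low for Tgfbr1 at summed rod levels of 180 to 1683 RPKM, inside or below the naïve range of 230 to 5067 RPKM. The part of rod transcripts in the levels of Tgfbr1 was not tested.

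Tgfbr1 fell by 1.05 on the log2 scale at 4 h, or 2.07-fold (SE 0.29, adjusted p = 0.0179 by limma). At 18 h it fell by 2.35, or 5.10-fold (SE 0.31, adjusted p = 6.26e-06). The difference between 18 h and 4 h was itself past the threshold (log2 difference -1.30, SE 0.34, adjusted p = 0.0185), in a comparison where 2 of the 10 genes passed, both lower, and 5.46% of all genes did (2.52% lower). From 18 h to 2 weeks it rose by 2.27 (SE 0.33, adjusted p = 4.48e-05), as 1 of the 10 genes did where 2.67% of all genes passed (1.12% higher), and against naïve the 2 week difference was -0.08 with a 95% interval from -0.64 to 0.49.

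The 4 h difference was larger in experiment 1 (-1.59, adjusted p = 0.0355) than in experiment 2 (-0.47, adjusted p = 0.215). The test of that gap gave 1.12 on the log2 scale (unadjusted p = 0.0375, adjusted p = 0.997), where 0.0988% of all genes passed and 0 of the 10 genes did by limma. At an unadjusted p under 0.05 it was 1 of the 10, beside 4.71% of all genes. The 18 h difference was -2.69 in experiment 1 (adjusted p = 0.000435) and -1.17 in experiment 2 (adjusted p = 0.16), which held 1 retina at 18 h, the one at 41.2 RPKM. The 4 h difference did not pass without 4 h retina 1 (-0.93, adjusted p = 0.0633) or 4 h retina 2 (-0.90, adjusted p = 0.0665). The difference between 18 h and 4 h did not pass without 4 h retina 4 (-1.11, adjusted p = 0.0523), 18 h retina 2 (-1.18, adjusted p = 0.0679) or 18 h retina 3 (-1.17, adjusted p = 0.0628). Nor did it pass in experiment 1 alone (-1.10, adjusted p = 0.354 by limma). In experiment 2, with its 1 retina at 18 h, it was -0.69.

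Tgfbr2 (chr9:116084293-116175360, minus strand) encodes the type II receptor, which binds the ligand and activates TGFBR1. It held 7.45 to 30.5 RPKM in naïve retinas with a median of 11.9, and 3.31 to 8.64 RPKM at 4 h with a median of 7.00. At 18 h the retinas held 5.10, 2.69, 3.76, 8.79 and 6.87 RPKM, and at 2 weeks 9.22 to 31.9 RPKM with a median of 11.5. At 18 h 4 of 5 retinas lay below every naïve retina, and at 4 h 3 of 6 did. The exception at 18 h, retina 4, was also the retina with the highest lymphocyte marker sum (324 RPKM) and one of the 4 retinas under 8000 genes, and what this adds to its level was not tested.

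Tgfbr2 fell by 1.34 at 18 h, or 2.54-fold (SE 0.37, adjusted p = 0.0301 by limma). The 4 h difference of -1.08 (SE 0.35, 95% interval -1.80 to -0.36) missed the threshold at an adjusted p of 0.051, but passed under 6 of 14 alternative settings and in 7 of 28 fits that left out 1 retina. The values at 18 h and 4 h differed by -0.26 on the log2 scale (95% interval -1.10 to 0.59). The 2 week difference was -0.01 (95% interval -0.70 to 0.68), and the return from 18 h to 2 weeks, 1.33, had an adjusted p of 0.0682. The 18 h difference was -1.82 in experiment 1 (adjusted p = 0.071) and -0.40 in experiment 2 with its 1 retina (adjusted p = 0.74). It did not pass without naïve retina 6 (-1.24, adjusted p = 0.0527) or without 18 h retina 1 (-1.34, 0.0739), 2 (-1.16, 0.135) or 3 (-1.26, 0.0989).

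The 2 receptors were set against each other within each retina as log2((Tgfbr1 + 1)/(Tgfbr2 + 1)), in which the scaling of a library largely cancels. The ratio was 2.72 ± 0.76 (SD, n = 10) in naïve retinas, 2.75 ± 0.70 (n = 6) at 4 h, 1.71 ± 0.57 (n = 5) at 18 h and 2.65 ± 0.59 (n = 7) at 2 weeks. At 18 h it was 1.01 lower than in the naïve group (two-sided exact permutation test, p = 0.0226, adjusted over 9 ratio tests 0.102), which did not pass. It did without naïve retina 1 (-1.21, adjusted exact permutation p = 0.00674) and with 10 in place of 1 added to each RPKM (-1.21, adjusted exact permutation p = 0.00599). At 18 h Tgfbr2 held 2.69 to 8.79 RPKM, less than the 10 added, so that setting damps changes in Tgfbr2. Within experiment 1 the difference was -0.87 and did not pass (adjusted exact permutation p = 0.393).

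Smad2 and Smad3 encode the SMADs that the type I receptor phosphorylates. Smad2 held 4.47 to 23.6 RPKM in naïve retinas (median 12), 9.01 to 15.8 RPKM at 4 h (median 14.2) and 0.0285 to 21.1 RPKM at 2 weeks (median 8.45), with 20.4, 16.6, 25.8, 0.0993 and 23.4 RPKM at 18 h. The groups overlapped, and 18 h retina 4 and 2 week retina 1, both under 8000 genes, were near 0. Its log2 fold change was 0.16 at 4 h (95% interval -1.06 to 1.38), -0.04 at 18 h (-1.33 to 1.25) and then -0.45 at 2 weeks (-1.61 to 0.72). Without the 4 retinas under 8000 genes the 18 h value was 0.71 (adjusted p = 0.31).

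Smad3 was lower throughout, at 0.384 to 8.85 RPKM in naïve retinas (median 3.10), 0.0939 to 3.48 RPKM at 4 h (median 2.85) and 0.0547 to 4.59 RPKM at 2 weeks (median 2.63). At 18 h the retinas held 2.39, 1.26, 2.18, 0.334 and 1.41 RPKM, 5 of 5 under the naïve median but 4 of 5 inside the naïve range. The log2 fold change was -0.47 at 4 h (95% interval -1.33 to 0.40), -0.76 at 18 h (-1.68 to 0.15, adjusted p = 0.398) and then -0.37 at 2 weeks (-1.20 to 0.45). The within-retina ratio of Smad3 to Smad2 was -1.63 ± 1.10 (SD, n = 10) on the log2 scale in naïve retinas and did not pass at any time (adjusted exact permutation p of 0.547, 0.547 and 0.928).

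Smad4, the partner that SMAD2 and SMAD3 share with the BMP branch, held 0.808 to 22.4 RPKM in naïve retinas with a median of 5.13. At 4 h it held 9.25 to 24.5 RPKM with a median of 11.1, so that 9 of 10 naïve retinas lay below all 4 h retinas. The 18 h retinas held 2.82, 3.03, 4.65, 10.2 and 3.70 RPKM, and the 2 week retinas 1.15 to 16.1 RPKM with a median of 7.83. The 4 h log2 fold change of 1.22 (SE 0.45, 95% interval 0.30 to 2.14) did not pass (adjusted p = 0.0948 by limma), but it did without naïve retina 1, the one at 22.4 RPKM (1.43, adjusted p = 0.0257). At 18 h the value was -0.19 (95% interval -1.16 to 0.79), and at 2 weeks 0.09 (-0.79 to 0.97).

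Smad7, the inhibitory SMAD that is itself a target of the pathway, was low in all groups. It held 0.538 to 11.1 RPKM in naïve retinas (median 2.05), 0.614 to 5.56 RPKM at 4 h (median 2.07) and 1.26 to 5.94 RPKM at 2 weeks (median 2.76), with 1.33, 0.687, 1.21, 3.25 and 1.55 RPKM at 18 h. All groups overlapped. The log2 fold change was -0.01 at 4 h (95% interval -0.80 to 0.77), -0.40 at 18 h (-1.23 to 0.43) and then 0.24 at 2 weeks (-0.51 to 0.99).

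Skil (chr3:31095058-31122577, plus strand) encodes SnoN, a SMAD corepressor whose gene is also a target of the pathway. It held 10.3 to 50.2 RPKM in naïve retinas with a median of 27.3, and 42.8 to 104 RPKM at 4 h with a median of 76.1. The 18 h retinas held 16.0, 10.9, 14.9, 25.0 and 30.9 RPKM, and the 2 week retinas 6.01 to 54.6 RPKM with a median of 21.3. At 4 h 5 of 6 retinas lay above every naïve retina, and the remaining retina, at 42.8 RPKM, lay above 9 of 10.

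Skil rose by 1.43 on the log2 scale at 4 h, or 2.70-fold (SE 0.35, adjusted p = 0.00702 by limma). It was lower at 18 h than at 4 h by 1.94 (difference -1.94, SE 0.41, adjusted p = 0.00322), and at 18 h it differed from naïve by -0.51 (95% interval -1.28 to 0.26, adjusted p = 0.527). At 2 weeks the difference was -0.33 (95% interval -1.01 to 0.36). The 4 h difference was 1.30 in experiment 1 (adjusted p = 0.344) and 1.498 in experiment 2 (adjusted p = 0.000537), and the test between experiments gave a gap of 0.20 (95% interval -1.27 to 1.67).

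Ski (chr4:155154075-155222592, minus strand), the related corepressor, held 5.83 to 21.03 RPKM in naïve retinas (median 9.43), 2.198 to 11.1 RPKM at 4 h (median 7.46) and 3.92 to 46.1 RPKM at 2 weeks (median 8.18). The 18 h retinas held 4.06, 4.34, 2.83, 3.56 and 4.34 RPKM, all below every naïve retina, as 1.3% of all genes tested were. The 18 h log2 fold change of -1.28 (SE 0.43, 95% interval -2.16 to -0.39) did not pass (adjusted p = 0.0892 by limma), though it did without 2 week retina 4, the retina at 46.1 RPKM, which enters the shared estimate of the spread (adjusted p = 0.0394). The 4 h value was -0.71 (95% interval -1.54 to 0.13) and the 2 week value -0.14 (-0.94 to 0.65).

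The ratio of the corepressors rose at 4 h, when Skil by itself passed and Ski did not. The within-retina log2 ratio of Skil to Ski was 1.24 ± 1.12 (SD, n = 10) in naïve retinas and 3.38 ± 0.63 (n = 6) at 4 h, where 4 of 6 retinas lay above all naïve ones. The difference of 2.14 passed (two-sided exact permutation test, p = 0.00112, adjusted over 9 ratio tests 0.0101). Within experiment 1 it was 2.45 (3 against 6 retinas, exact permutation p = 0.0357, adjusted 0.321), and within experiment 2 it was 1.64 (3 against 4 retinas, exact permutation p = 0.0286, the smallest that design allows, adjusted 0.171). At 18 h the ratio was 2.01 ± 0.59 (n = 5, adjusted p = 0.545 by the exact permutation test) and at 2 weeks 1.06 ± 1.78 (n = 7, adjusted p = 0.928 by the exact permutation test).

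**Figure D4:**
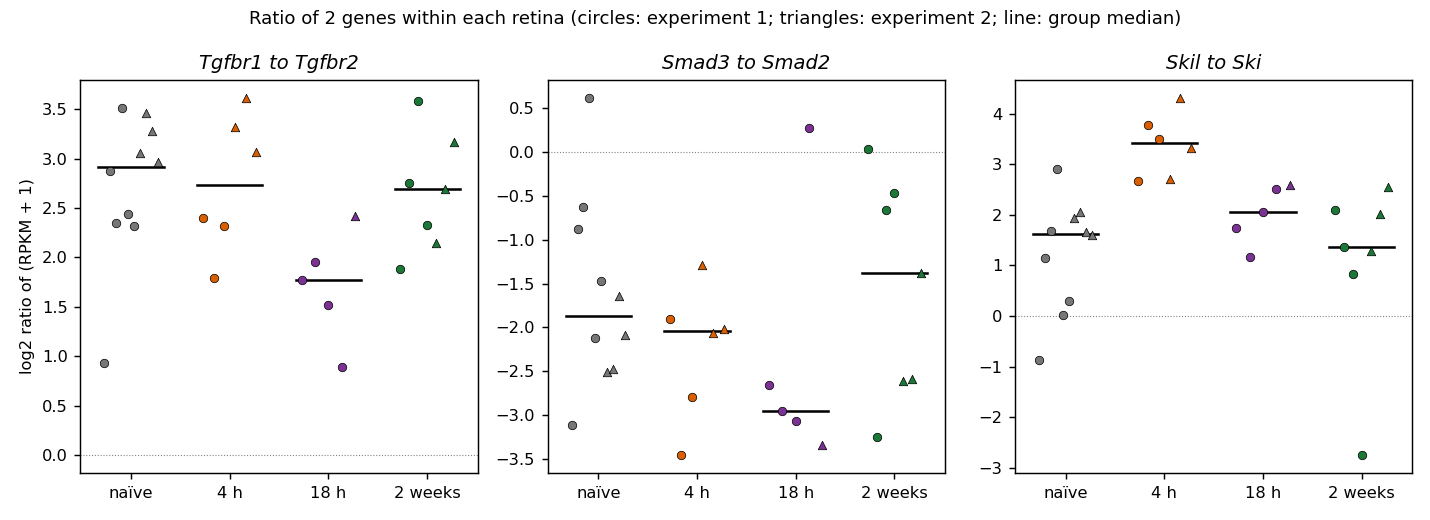
Log2 ratio of (RPKM + 1) between 2 genes of the same retina, by group, with circles for experiment 1, triangles for experiment 2 and a line at the group median. Skil to Ski runs from 2.67 to 4.32 at 4 h against -0.86 to 2.91 in naïve retinas, Tgfbr1 to Tgfbr2 is lowest at 18 h (0.89 to 2.42), and Smad3 to Smad2 overlaps in all groups.

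Of 17 genes for ligands and latent TGF-beta activation, 8 were tested, 0 passed at 4 h by limma (8.7% of all genes), with 0 at an unadjusted p under 0.05, and 1 at 18 h, where it was lower (1.91% of all genes). The 1 was Itgb3, the beta subunit of an integrin that can release TGF-beta, which fell by 1.61 (adjusted p = 0.0101 by limma) from a naïve median of 2.86 RPKM to 0.0601 RPKM. That fall did not pass after quantile normalisation or in experiment 1 alone, and experiment 2, with 1 retina at 18 h, gives no second test of it. Itgb5, another integrin beta subunit, differed by -1.47 at 18 h (adjusted p = 0.14). Tgfb2 did not exceed 1.84 RPKM in any retina, and Tgfb3, which was not tested, did not exceed 2.33 RPKM. Of 11 receptors and co-receptors, 8 were tested, and the 1 and 2 that passed at 4 h and 18 h were Tgfbr1 and Tgfbr2 already described.

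Of 13 SMADs and partner genes, 10 were tested, and 1 rose and 1 fell at 4 h (3.87% and 4.82% of all genes) and 1 fell at 18 h (1.91%). Runx1, a transcription factor that joins SMAD complexes, rose by 1.06 at 4 h (adjusted p = 0.0388 by limma), from 4.22 to 12.2 RPKM in naïve retinas to 5.46 to 32.97 RPKM. That rise did not pass when libraries were rescaled to equal summed RPKM, nor in either experiment alone. Ep300, the acetyltransferase coactivator p300, fell by 1.31 at 4 h (adjusted p = 0.00561) and by 1.19 at 18 h (adjusted p = 0.0322). Neither fall passed in experiment 1 alone, and the 18 h fall did not pass after quantile normalisation. For 18 h, experiment 2 held 1 retina and gives no second test. Ep300 was at 0.543 to 1.67 RPKM in the 4 h retinas and at 1.97 to 17.4 RPKM in the naïve retinas.

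Of 21 inhibitors and SMAD turnover genes, 19 were tested and 2 rose and 1 fell at 4 h, beside 3.87% and 4.82% of all genes. Tgif1, a homeobox corepressor of SMAD2, rose by 1.74 beside Skil (adjusted p = 0.00111 by limma), at 12.3 to 37.6 RPKM against 2.65 to 14.2 RPKM. Pmepa1, a membrane protein that sequesters SMAD2 and SMAD3 and is a sensitive target of the pathway, fell by 1.83 at 4 h (adjusted p = 6.65e-05) and by 1.56 at 18 h (adjusted p = 0.00242). It held 18.2 to 62.3 RPKM in naïve retinas, 2.93 to 12.02 RPKM at 4 h, 4.76 to 10.5 RPKM at 18 h and 16.0 to 24.9 RPKM at 2 weeks. All 18 h retinas lay below every naïve retina, as they did for 1.3% of all genes tested. In experiment 1 alone neither the 4 h rise of Tgif1 nor the 18 h fall of Pmepa1 passed, and experiment 2 held 1 retina at 18 h. At 18 h Pmepa1 was the 1 gene of this list that passed (1.91% of all genes fell), and Ski fell beside it when libraries were rescaled to equal summed RPKM. Wwp1, a ubiquitin ligase, differed by -1.06 (adjusted p = 0.22).

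Of 19 genes known as TGF-beta targets, 15 were tested, and 7 rose, Skil among them, and 1 fell at 4 h, beside 3.87% and 4.82% of all genes. Their median on the log2 scale was 0.53, beside -0.11 over all genes. Among those with the largest changes were Cdkn1a, the cell cycle inhibitor p21 (4.63, adjusted p = 3.18e-06 by limma), Junb, an AP-1 subunit (4.13, adjusted p = 0.00149), and Rgs1, a regulator of G protein signalling (2.88, adjusted p = 0.000182). These 3 genes are also known to respond to many other stimuli. At 18 h Cdkn1a remained past the threshold (3.28, adjusted p = 0.0023) and Pmepa1 was the gene that fell, while the list's median was -0.0028 beside -0.08. In experiment 1 alone 2 targets rose and 1 fell at 4 h (2.29% and 1.19% of all genes), and in experiment 2 alone 6 rose and 1 fell (3.97% and 12.8%).

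Of 20 genes whose expression in microglia is known to depend on TGF-beta, 20 were tested, and 0 rose and 11 fell at 4 h (4.82% of all genes fell). The list's median was -1.24 on the log2 scale at that time. At 18 h 0 rose and 12 fell (median -1.47), beside 1.91% of all genes. At 2 weeks 0 of 20 passed by limma, and 0 at an unadjusted p under 0.05 (median 0.13), and from 18 h to 2 weeks 12 rose, beside 1.12% of all genes. Lymphocyte markers, at 0 to 0.548 RPKM summed in naïve retinas, summed to 9.10 to 324 RPKM in the 18 h retinas. Only Nkg7 and Gzma among those markers exceeded 5.24 RPKM there, and the part of lymphocyte transcripts in these changes was not tested. Sall1, a transcription factor of microglial identity, fell by 2.97 at 4 h (adjusted p = 3.25e-08 by limma), from 19.7 to 67.8 RPKM to 0.771 to 5.42 RPKM.

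P2ry12, the microglial ADP receptor, fell by 3.28 at 18 h (adjusted p = 1.73e-05 by limma), from 866 to 2714 RPKM to 88.3 to 360 RPKM. Gpr34, a lysophospholipid receptor, fell by 3.54 at 4 h and 3.81 at 18 h (adjusted p = 6.20e-06 and 1.70e-05). Siglech, a sialic acid-binding lectin, differed by -0.50 at 4 h (adjusted p = 0.506) and fell by 2.91 at 18 h (adjusted p = 1.70e-05), and its change from 4 h to 18 h was past the threshold (-2.41, adjusted p = 0.000657). Sall1 moved the other way over that interval, rising by 1.64 (adjusted p = 0.00544). Without the 4 retinas under 8000 genes 12 of the 20 fell at both times (9.89% of all genes at 4 h, 2.97% at 18 h). In experiment 1 alone 8 and 9 fell (1.19% and 0.593%). In experiment 2 alone 8 fell at 4 h (12.8%) and 1 at 18 h (0.441%), where it held 1 retina.

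**Figure D5:**
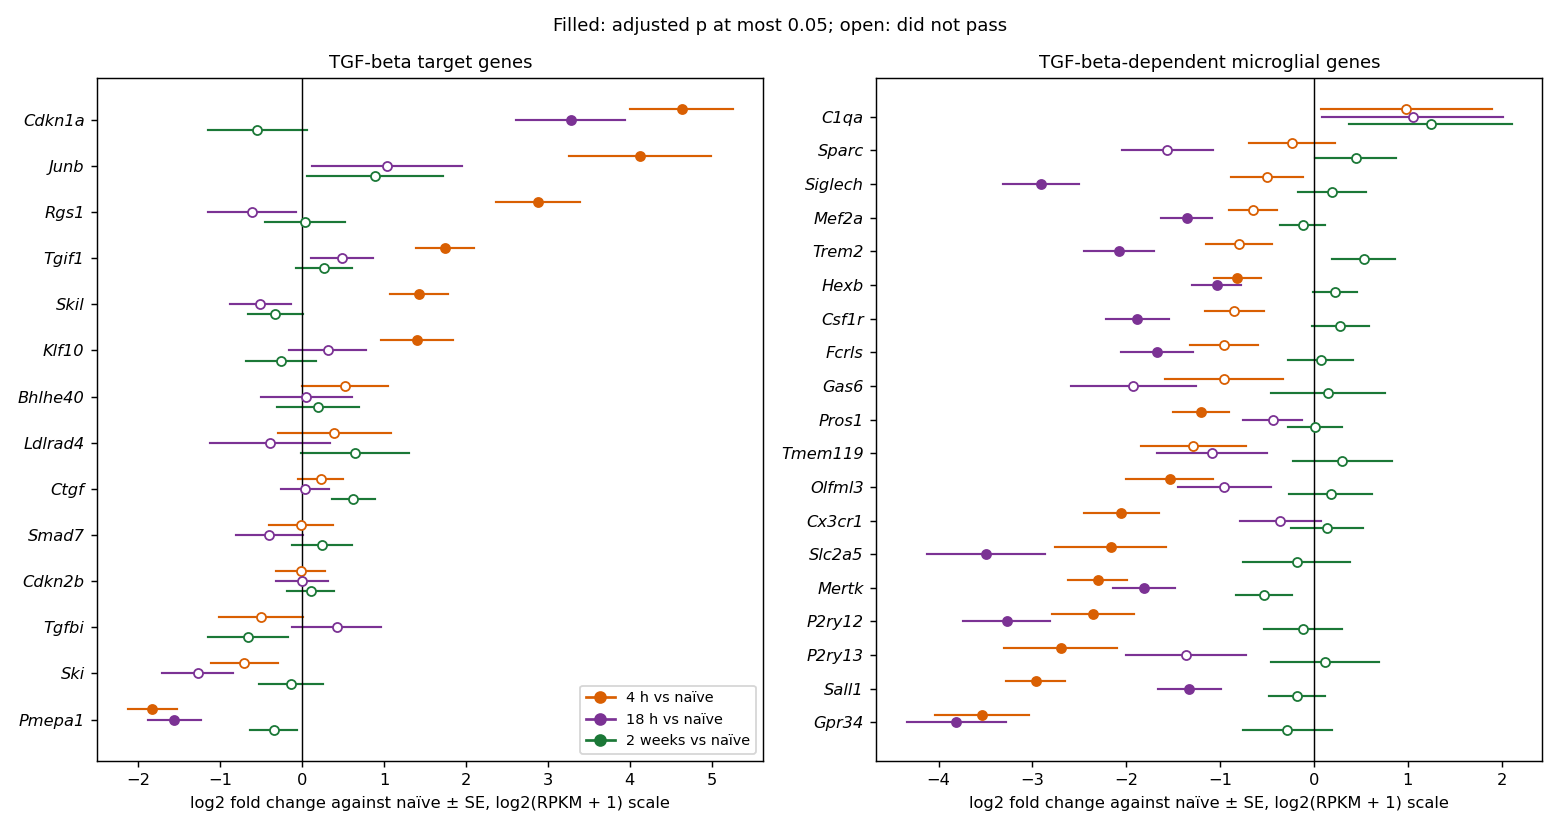
Log2 fold change against naïve, ± SE, of 14 tested TGF-beta target genes (left) and 19 TGF-beta-dependent microglial genes (right) at each of the 3 sampling times, filled where the adjusted p was at most 0.05. At 4 h 6 of the targets drawn lie right of 0 and pass while Pmepa1 lies at -1.83, and 10 of the microglial genes drawn lie left of 0 and pass. For 18 h that count is 11 and for 2 weeks it is 0.

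In the BMP branch, whose receptors signal through other SMADs, 10 of 17 genes were tested and 2 rose at 4 h (3.87% of all genes). Id2, an inhibitor of basic helix-loop-helix factors, rose by 5.47 (adjusted p = 9.51e-09 by limma), from 0.193 to 20.6 RPKM to 216 to 980 RPKM, and was still 2.60 higher at 18 h (adjusted p = 0.00504). Id3 rose by 2.45 at 4 h (adjusted p = 0.0052). Of 16 genes that carry TGF-beta signals past the SMADs, 16 were tested, and 1 rose and 1 fell at 4 h, beside the same 3.87% and 4.82%: Map2k3, the kinase MKK3, rose by 2.71 at 4 h (adjusted p = 0.0125), and Mapk14, the p38 alpha kinase it activates, fell by 1.88 at 4 h and 1.65 at 18 h (adjusted p = 0.00464 and 0.0344). Neither gene passed at these times in experiment 1 alone, and experiment 2 held 1 retina at 18 h.

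Over all 28 retinas, differences between groups included, the genes most like Tgfbr1 in rank order (Spearman's rho, as a description) were Alox5ap, the 5-lipoxygenase-activating protein (0.91), Gm26527 (0.89) and Cst3, cystatin C (0.89). The most opposite were Nop56, a ribosome biogenesis factor (-0.91), the endoplasmic reticulum chaperone Hspa5 (-0.89) and Lcn2, lipocalin 2 (-0.88). For Skil they were Dennd4a (0.81), the transcription repressor Bach1 (0.80) and the kinase Dyrk2 (0.73), against Commd7 (-0.87), Lefty1, an extracellular antagonist in the TGF-beta superfamily (-0.81), and the proton pump subunit Atp6v0b (-0.81).

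For Tgfb1 the genes highest in this measure were Grina (0.91), Prkab1, a subunit of AMP-activated kinase (0.90), and Arfip2 (0.89), and the lowest were Pfdn6 (-0.85), Ndufs6 (-0.85) and Gm37376 (-0.84). For Nrros they were Pkm, pyruvate kinase (0.93), Rab1b (0.92) and Efhd2 (0.92), and the lowest Ube2v2 (-0.87), Gm6565 (-0.86) and the long non-coding RNA Malat1 (-0.85). Among the 10 genes themselves the most alike were Tgfb1 and Nrros (0.83) and the receptors Tgfbr1 and Tgfbr2 (0.74), and the least alike were Tgfbr1 and Smad2 (-0.52). Retinas share depth and rod transcript level in these values, which cover 28 points each.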

How the data were processed

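The authors sorted microglia from single retinas, made cDNA with SMART-Seq v4 and libraries with Nextera XT, and, per the labels, used bcl2fastq 2.20, STAR 2.5.3a on mm10 and Partek. The deposited table gives RPKM per gene, estimated by the authors on Ensembl transcripts by expectation maximisation, so exact zeros and very low values can be products of that estimate and whole reads were not recovered. Depth, 7510000 to 19700000 alignments per retina, limits low genes. Columns of the deposited tables that hold the authors' own comparisons (fold changes, p-values and FDR at 4 h and 18 h) were not used.

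The RPKM values were taken as log2(RPKM + 1). Genes that reached an RPKM of 1 in 5 or more of the 28 retinas (13164 of 40021) entered 1 limma fit (limma 3.58.1, R 4.3.3) of 4 group means with a trended prior, with Benjamini-Hochberg adjustment over all genes. The gap between experiments at 4 h was fitted with 8 means of group and experiment. Within-retina ratios were compared by two-sided exact permutation tests, adjusted over 9 (Python 3.11.15). The fit was tested on simulated data. Named genes were all 10 members, up to 4 genes that passed with the largest changes per list, direction and comparison, and the 3 most and least like 4 members. Tgfb2, Tgfb3, Itgb5 and Wwp1, which did not pass or were not tested, are named outside that rule. The members and all lists were chosen with earlier results of these data known. Lists are described by counts and medians, and Ccn2 is listed as Ctgf. No 2 retinas shared more than 1 gene with the same RPKM of at least 1. Alternatives were pseudocounts, filters, scalings, covariates, weights, single experiments and leaving out each retina, and, chosen after the data were seen, leaving out 4 retinas under 8000 genes. For 2 genes of the lists, single values are not reported here.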

Additional observations from a re-analysis of the deposited data

Results flagged for a closer look

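Within groups, 7 of 40 combinations of gene and group held a retina far from the others by Dixon's criterion, taken on RPKM. Its usual rate of about 1 in 20 is for normally distributed values. All 7 values lay at the high end, so the count is not compared with that rate. Naïve retina 1 was such a retina for Tgfb1 (31.61 RPKM, the next at 5.17), Smad4 (22.45 RPKM, the next at 8.07), Smad7 (11.11 RPKM, the next at 3.85) and Nrros (79.94 RPKM, the next at 34.4). At 18 h retina 5 stood apart for Tgfbr1 (41.22 RPKM, the next at 19.8) and retina 4 for Smad4 (10.18 RPKM, the next at 4.65). At 2 weeks retina 4 stood apart for Ski (46.08 RPKM, the next at 12.01).

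The changes at 4 h and 18 h differed for 2 of the 10 genes by the limma contrast between those times. The change of Tgfbr1 at 18 h minus that at 4 h was -1.30 on the log2 scale (adjusted p = 0.0185), and that of Skil was -1.94 (adjusted p = 0.00322).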

How the results depend on the processing

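Among values for single genes and lists of the 3 most alike genes, 2352 stayed the same under an alternative, in direction and side of the threshold or in most genes listed. Of the rest, 32 came to pass, 21 no longer passed and 102 changed sign. In 3 cases a list of the 3 genes most like a member kept fewer than 2 of them. A pseudocount leaves rank order as it is, so only Pearson correlation in place of Spearman's could move these lists. None of the values that changed sign passed, and the causes were not tested. Log2 differences are given against naïve unless another pair is named. With array weights, whose estimate stopped before reaching its tolerance, 3333 genes passed at 4 h, 4351 at 18 h, 3340 between 18 h and 4 h, 2970 between 2 weeks and 18 h and 327 between experiments, with 4, 5 and 4 of the 10 members at 4 h, at 18 h and between 2 weeks and 18 h. Under those weights Smad2 was -0.21 at 4 h, 0.38 at 18 h and 0.59 between 18 h and 4 h, Tgfbr2 0.13 at 2 weeks and Nrros 0.027 between 2 weeks and 18 h. In experiment 1 alone 459, 232, 202 and 76 genes passed at 4 h, at 18 h, between 18 h and 4 h and between 2 weeks and 18 h, with 1, 1 and 0 members in the first 3. There Smad7 (0.33) and Nrros (-0.27) changed sign at 4 h, Smad2 (0.077) and Smad4 (0.14) at 18 h, Tgfbr1 (0.010), Smad4 (-0.20) and Ski (0.13) at 2 weeks, Smad3 (0.13) between 18 h and 4 h and Smad4 (-0.34) between 2 weeks and 18 h. The ratio Tgfbr1 to Tgfbr2 was -0.23 at 4 h and 0.24 at 2 weeks, and Skil to Ski 2.45 at 4 h (adjusted exact permutation p = 0.321). In experiment 2 alone 2208, 165 and 177 genes passed at 4 h, at 18 h and between 2 weeks and 18 h, with 1, 0 and 0 members, and 1 between 18 h and 4 h. There Smad2 was -0.44 at 4 h, 0.41 at 18 h and 0.84 between 18 h and 4 h, Nrros -0.58 at 18 h, -0.90 between 18 h and 4 h and 1.16 between 2 weeks and 18 h, Tgfb1 -0.49 at 18 h, Skil 0.031 at 18 h and -0.35 between 2 weeks and 18 h, and Tgfbr2 0.34 at 2 weeks and 0.22 between 18 h and 4 h. The ratio Smad3 to Smad2 was 0.39 at 4 h and -0.014 at 2 weeks, and Skil to Ski 1.64 at 4 h (adjusted exact permutation p = 0.171) and 0.14 at 2 weeks. With experiment as a covariate Smad2 was 0.13 at 18 h and 0.061 between 18 h and 4 h, Tgfbr2 0.0039 at 2 weeks, and 2 members passed between 2 weeks and 18 h. With eye as a covariate Nrros was 0.14 between 2 weeks and 18 h. A filter at an RPKM of 5 gave 2 members between 2 weeks and 18 h and 1 gene between experiments, no filter gave 25 genes between experiments, and fitting only the groups compared gave 1 member at 18 h. A pseudocount of 0.1 gave Nrros -0.18 at 4 h and 0 genes between experiments. A pseudocount of 10 gave Tgfb1 -0.044 and Smad2 0.16 at 18 h, Smad2 0.11 between 18 h and 4 h, Nrros 0.013 between 2 weeks and 18 h, 46 genes between experiments, and a ratio Tgfbr1 to Tgfbr2 of -0.31 at 4 h and -1.21 at 18 h (adjusted exact permutation p = 0.00599). Quantile normalisation gave Smad7 0.036 at 4 h, Smad2 0.042 at 18 h, Smad4 -0.043 at 2 weeks, Nrros 0.0065 between 2 weeks and 18 h, Tgfb1 0.34 between experiments and 1 member at 18 h. Rescaling to equal summed RPKM shifted the median of all genes by -0.17 at 4 h and -0.18 at 18 h, took the share of passed genes that were higher from 44.5% to 27.4% at 4 h, from 60.5% to 32.7% at 18 h and from 41.9% to 66% between 2 weeks and 18 h, and gave Smad2 -0.10 and Nrros -0.098 at 4 h, Tgfb1 -0.046 at 18 h, Nrros 0.26 and 2 members between 2 weeks and 18 h. Tgfbr1 relative to the median of all genes was -0.94 at 4 h before and -1.05 after rescaling. Without the 4 retinas under 8000 genes, an alternative chosen after seeing the data, 1868, 962, 1325 and 553 genes passed at 4 h, at 18 h, between 18 h and 4 h and between 2 weeks and 18 h, 2 members passed in the last, and Smad7 was 0.011 and Nrros -0.29 at 4 h, Tgfb1 -0.0081 and Smad2 0.71 at 18 h, Smad3 0.17 at 2 weeks and Smad2 0.67 between 18 h and 4 h.

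The labels do not say whether same-numbered retinas share more than a number. Of 34 such pairs, 15 had correlated deviations above 0.1 (median 0.035, range -0.33 to 0.70), and 7 of 28 retinas correlated best with their own number. These values do not settle whether they share a block. With the replicate number as a block 1097 genes passed at 4 h and 599 at 18 h, Tgfbr2 passed at 4 h (-1.42, adjusted p = 0.0248 by limma), and Smad7 was 0.0056 at 4 h and Smad2 0.27 and Smad4 0.13 at 18 h.

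Leaving out each retina in turn, the number of members that passed ran from 1 to 3 at 4 h, from 1 to 3 at 18 h and from 1 to 2 between 18 h and 4 h. Genes that passed ran from 409 to 788 at 18 h, 473 to 850 between 18 h and 4 h, 205 to 449 between 2 weeks and 18 h and 1 to 38 between experiments. Counts moved by over 1.5 times at 18 h without 18 h retinas 1 (409), 2 (413) or 3 (424), between 18 h and 4 h without 4 h retina 1 (473), and between 2 weeks and 18 h without 18 h retinas 2 (205) or 3 (220). Between experiments they did so without 13 of the retinas, from 1 gene without 4 h retina 6 to 38 without 4 h retina 1. Values that changed sign ran from -0.22 to 0.20 for Smad7 and -0.30 to 0.86 for Nrros at 4 h, from -0.32 to 0.83 for Smad2 and -0.45 to 0.026 for Smad4 at 18 h, and at 2 weeks from -0.16 to 0.0032 for Tgfbr1, -0.19 to 0.11 for Tgfbr2, -0.66 to 0.082 for Smad2, -0.14 to 0.36 for Smad4 and -0.50 to 0.041 for Ski. Between 18 h and 4 h they ran from -0.90 to 0.014 for Tgfb1, -0.48 to 0.67 for Smad2 and -0.31 to 0.85 for Nrros, and between 2 weeks and 18 h from -1.27 to 0.12 for Smad2, -0.30 to 0.21 for Nrros and -0.040 to 0.46 for Skil. Between experiments they ran from -1.06 to 1.22 for Tgfb1, -0.92 to 1.97 for Nrros and -0.056 to 0.43 for Skil. Ratios ran from -0.20 to 0.35 for Smad3 to Smad2 at 2 weeks, from -0.16 to 0.23 at 4 h, -1.21 to -0.80 at 18 h and -0.27 to 0.060 at 2 weeks for Tgfbr1 to Tgfbr2 (-1.21 without naïve retina 1, adjusted exact permutation p = 0.00674), and from -0.43 to 0.45 for Skil to Ski at 2 weeks.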
